A study of Mus musculus with 6 samples.

Results

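REST and SIN3A were the only 2 proteins of this study that were precipitated with an antibody against the protein itself, and the comparison of their peak lists is described here. REST is a zinc finger repressor that binds a long DNA element and keeps neuronal genes silent outside neurons and in pluripotent cells. It recruits corepressors through its ends: the amino-terminal end binds the SIN3 scaffold proteins, which carry histone deacetylases, and the carboxy-terminal end binds the CoREST proteins of the RCOR family, which bring histone deacetylases and the histone demethylase LSD1. SIN3A has no DNA-binding domain of its own and reaches DNA through REST and many other transcription factors.

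Both libraries were chromatin immunoprecipitation and sequencing (ChIP-seq) libraries from E14, a mouse embryonic stem cell line, at passages 15 to 18. The labels name no transgene for either. Lines expressing RCOR1, RCOR2, RCOR3 or SIN3B with an epitope tag at a low level gave the other 4 libraries, which were precipitated with a V5 antibody and are called tagged libraries here. For SIN3B the label of the transgene reads VG and that of the antibody V5. The labels do not say whether a line was 1 clone. Each protein had 1 library, so no value below has a replicate check and no test between proteins was possible. A protein, its antibody and its library cannot be told apart. The intervals are exact 95% Clopper-Pearson intervals for the share of peaks, which cover counting error only, and peaks are not replicates.

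The members were the peaks of both deposited lists, on mouse genome build mm8. A peak was called shared when the midpoint of a peak of the other list lay less than 400 bp away on the same chromosome. Midpoints on chromosome X between 165.3 and 165.4 Mb, a crowded stretch with 24 REST and 22 SIN3A peaks, were left out. This kept 3080 of 3104 REST peaks and 1292 of 1314 SIN3A peaks, 4372 of the 14023 peaks of all 6 lists. Positions are printed as deposited, and no gene annotation or genome sequence of this build was used here, so peaks are named by position.

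Each peak carries a score assigned by the authors, whose meaning is not given in the sources used here. Scores served here only to order the peaks of each list. REST scores ran from 8 to 1121.33 and took 453 different values in the peaks used. SIN3A scores ran from 8.01 to 151.54 and took only 57 values, with 403 peaks (31.2%) at a score of 10.2. Ranks in the lower part of the SIN3A list were therefore coarse. The tagged lists differed in length, from 60 peaks for RCOR1 and 437 for RCOR2 to 3729 for RCOR3 and 5294 for SIN3B, and read depth is unknown.

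Most peaks of either protein had no partner in the other list. A REST peak lay at 241 of 1292 SIN3A peaks (18.7%, 16.6 to 20.9%), and a SIN3A peak at 258 of 3080 REST peaks (8.38%, 7.42 to 9.41%). The remaining 1051 SIN3A peaks (81.3%) are called SIN3A-only and the remaining 2822 REST peaks (91.6%) REST-only. The REST list was the longer, and when it was shortened to its 1292 highest-scoring peaks the shares became 16.3% of SIN3A peaks and 16.4% of REST peaks.

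Where both proteins were found, the peaks nearly coincided. The median distance between the midpoints of a shared pair was 20 bp, a single step of the 20 bp grid on which peaks were listed, with quartiles of 10 and 60 bp. Of the 241 pairs, 170 (70.5%) lay within 40 bp, 223 (92.5%) within 100 bp, and 33 had the same start and end in both lists. Seen from the SIN3A peaks, the distances then had a gap. Only 3 SIN3A peaks had their nearest REST midpoint between 200 and 400 bp, the farthest at 300 bp, and the next SIN3A peak outside the limit was at 530 bp. The pairs just inside, at 210, 260 and 300 bp, had SIN3A scores of 14.57, 10.93 and 10.93. Those just outside, at 530 and 550 bp, both on chromosome 8, had SIN3A scores of 10.93 and 10.2.

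The SIN3A peaks at REST each had the nearest REST peak as a partner that in turn was nearest to them, giving 241 sites. At 16 of these sites a second REST peak, and at 1 of them also a further one, lay within the limit. These 17 additional REST peaks were weak, with REST scores from 8.89 to 26.08 and a median of 10.67, and 15 of them were in the lower 5 deciles of REST score.

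**Figure D1:**
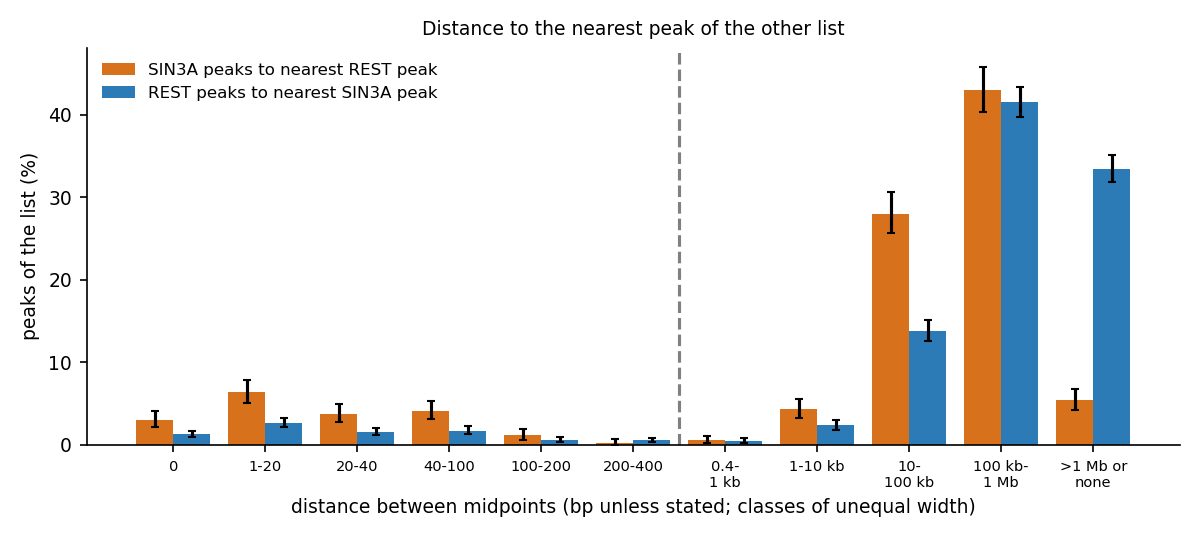
Share of SIN3A peaks (orange, n = 1292) and REST peaks (blue, n = 3080) by the distance from their midpoint to the nearest midpoint of the other list, in classes of unequal width. Bars are shares, whiskers exact 95% intervals, and the dashed line marks the sharing limit of 400 bp. The last class includes 25 REST peaks on chromosomes without a SIN3A peak. Shared pairs gather at 100 bp or less, and few peaks of either list lie from 200 bp to 1 kb.

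SIN3A-only peaks were mostly far from REST. Their median distance to the nearest REST midpoint was 141 kb, and that of REST-only peaks to the nearest SIN3A midpoint was 565 kb. Only 7 SIN3A peaks (0.542%) lay between 400 and 1000 bp from REST and 56 (4.33%) between 1 and 10 kb. None of the 7 had a SIN3B peak. In the classes from 1 kb outward, SIN3B was present at 41.1% (1 to 10 kb), 47.2% (10 to 100 kb), 46.4% (100 kb to 1 Mb) and 44.3% (beyond) of SIN3A peaks, so its share changed little with distance once REST was more than 1 kb away. Among SIN3A peaks within 100 bp of REST it was 89.8 to 95.1%.

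SIN3A was found mainly at the strongest REST sites. In the highest decile of REST scores, 69.34 to 1121.33, 130 of 308 REST peaks had SIN3A (42.2%, 36.6 to 47.9%). The share was 12.9% (9.41 to 17.2%) in decile 9, 7.69% (4.99 to 11.2%) in decile 8 and 4.90% (2.77 to 7.96%) in decile 7. Below that it was flat. Deciles 1 to 6 together had 49 of 1845 REST peaks with SIN3A (2.66%, 1.97 to 3.50%), and the lowest decile 9 of 351 (2.56%, 1.18 to 4.81%). The latter was 0.855% with intervals as deposited, 0.709% with the better-scoring 50% of every list and 1.23% with neighbouring peaks merged. At a limit of 200 bp it was 1.42%. Of the 17 additional REST peaks beside a nearer one, 15 were in deciles 1 to 5 and were counted in these shares. The highest decile thus held 130 of the 258 REST peaks with SIN3A. In the highest decile of the shortened REST list, a smaller set of peaks, 85 of 129 had SIN3A (65.9%, 57.0 to 74.0%).

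At the top of the REST list the coincidence was close to complete. SIN3A was present at all 10 of the highest-scoring REST peaks, at 24 of the highest 25 (96.0%, 79.6 to 99.9%), at 46 of 50, at 70 of 100, at 109 of 200 and at 160 of 500 (32.0%, 27.9 to 36.3%). The tagged SIN3B and RCOR3 libraries had a peak at all 100 of the highest 100, and at 475 and 456 of the highest 500. At each of these counts up to 500 SIN3A was present at no more REST peaks than either of these longer lists.

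The median REST score was 70.23 (quartiles 35.56 and 116.06) at REST peaks with SIN3A and 19.56 (11.85 and 36.38) at REST-only peaks. These correspond to median percentiles of 90.4 and 47.1 within the REST list. The ranges overlapped widely, since REST-only scores reached 242.99 and scores of REST peaks with SIN3A went down to 8.89.

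Seen from SIN3A, sharing was also most frequent at high scores. Of the 244 peaks in the highest quintile of SIN3A scores, 13.84 and above, 103 lay at REST (42.2%, 35.9 to 48.7%). The share was 18.3% (64 of 349, 14.4 to 22.8%) in quintile 4, 11% (29 of 264, 7.48 to 15.4%) in quintile 3 and 9.98% (43 of 431, 7.31 to 13.2%) in the lowest, where intervals as deposited gave 6.50%. Ties made these classes unequal, and quintile 2 held only 4 peaks. Of the 10 highest-scoring SIN3A peaks 9 lay at REST, of the highest 100 it was 67 (67.0%, 56.9 to 76.1%) and of the highest 500 it was 152 (30.4%, 26.4 to 34.6%). Among as many REST peaks it was 70 and 160, but equal counts reach deeper into the shorter SIN3A list. The highest 500 SIN3A peaks ended at a tied score of 11.66. Ties were broken by chromosome name and start, so that count depends on this order. The median SIN3A score was 12.39 at REST and 10.93 elsewhere, at percentiles of 70.5 and 43.9.

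**Figure D2:**
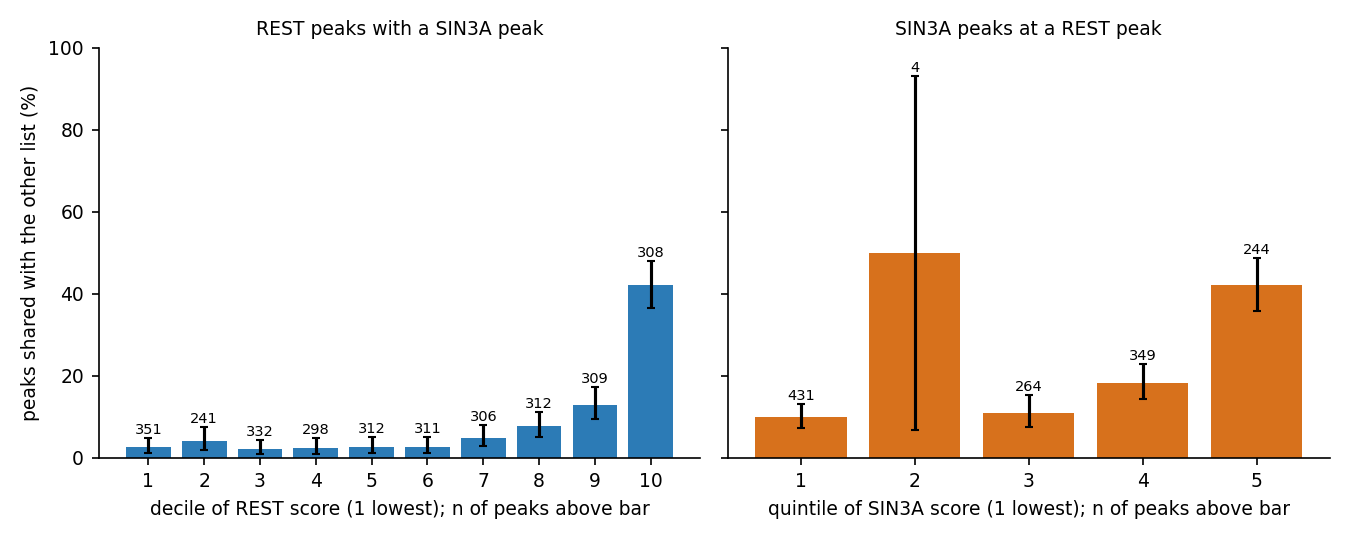
Share of REST peaks with a SIN3A peak by decile of REST score (left) and share of SIN3A peaks at a REST peak by quintile of SIN3A score (right). Bars are shares, whiskers exact 95% intervals, and the number above each bar is its number of peaks. On the left the share is at or below 4.90% up to decile 7 and 42.2% in the highest; quintile 2 on the right rests on 4 peaks.

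At the shared sites, REST and SIN3A scores were correlated in value, mainly over the strong REST peaks. Across the 241 sites the Spearman rank correlation between REST and SIN3A score was 0.478. It was 0.559 over the 130 sites in the highest decile of REST score and -0.0364 over the other 111. The latter was 0.106 with the better-scoring 50% of every list and 0.129 with the shortened REST list, and the difference between strong and other sites was not tested. These are descriptions across sites that share 2 libraries, and the many tied SIN3A scores limit them. The median SIN3A score was 12.03 at 26 sites of REST deciles 1 to 5, 11.66 at 85 sites of deciles 6 to 9 and 14.57 at 130 sites of decile 10. SIN3A scores above 20.4 occurred only at sites of the highest REST decile, where they reached 151.54. Of the 241 sites, 72 were in the highest decile of REST and the highest quintile of SIN3A, 58 in the former only, 31 in the latter only and 80 in neither.

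Rank correlations with the tagged libraries were higher in value for REST score than for SIN3A score. At shared sites the Spearman coefficient was 0.847 for REST with RCOR3 (200 sites) and 0.699 for REST with SIN3B (221 sites), against 0.503 for SIN3A with RCOR3 and 0.554 for SIN3A with SIN3B. At the 483 SIN3A-only peaks with SIN3B, the coefficient between SIN3A and SIN3B score was 0.199. The difference between these coefficients was not tested.

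**Figure D3:**
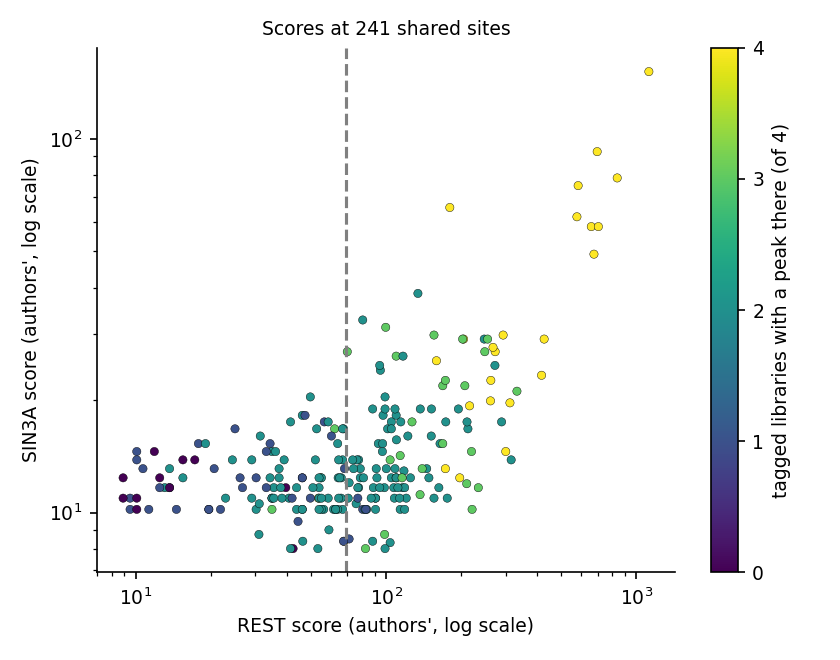
REST score against SIN3A score at the 241 shared sites, both on log scales, each point 1 site coloured by the number of tagged libraries (0 to 4) with a peak there. The dashed line is the lower limit of the highest REST decile, 69.34. To its left SIN3A scores stay at or below 20.4; the sites highest on both axes carry all 4 tagged proteins.

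The 5 sites ranking highest in both lists together show the extreme. The first, on chromosome 7 at 6014211 to 6014251 (SIN3A), was the top peak of both lists, with a SIN3A score of 151.54 and a REST score of 1121.33 at a distance of 20 bp. On chromosome 19 at 4989171 to 4989211 and on chromosome 8 at 14072691 to 14072731, REST and SIN3A had identical intervals, with SIN3A scores of 92.53 and 78.68 and REST scores of 696.98 and 838.04. The other two lay on chromosome 15, at 84657351 to 84657391 and at 77947191 to 77947231, with SIN3A scores of 75.04 and 58.28 and REST scores of 584.97 and 704.68. All 5 carried RCOR1, RCOR2, RCOR3 and SIN3B peaks too.

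Some strong REST sites had weak SIN3A peaks. The widest gaps in rank were on chromosome 11 at 118401111 to 118401171 (SIN3A 8.31, percentile 0.774, REST 103.72, percentile 95.9), on chromosome 7 at 44461991 to 44462051 (SIN3A 8.01, REST 98.98) and on chromosome 14 at 62667411 to 62667451 (SIN3A 8.74, REST 98.58). RCOR3 and SIN3B had peaks at all 3. The opposite order was found on chromosome 7 at 35027051 to 35027171 (SIN3A 14.57, percentile 87.2, REST 10.08, percentile 13.5), on chromosome 17 at 45791551 to 45791731 (SIN3A 13.84, REST 10.08) and on chromosome 11 at 70268371 to 70268551 (SIN3A 12.39, REST 8.89). These 3 SIN3A peaks were 120, 180 and 180 bp wide, none had RCOR3, and 2 had SIN3B.

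Of the tagged libraries, which played no part in calling a peak shared, RCOR3 and SIN3B had a peak at most shared sites, and RCOR1 and RCOR2 at fewer than 1 in 5. SIN3B, the paralogue of SIN3A, had a peak at 237 of 258 REST peaks with SIN3A (91.9%, 87.8 to 94.9%) and at 955 of 2822 REST-only peaks (33.8%, 32.1 to 35.6%), against a background of 38.7% of all REST peaks. RCOR3, a CoREST family member, was at 83.7% (216, 78.6 to 88.0%) and 27.9% (787, 26.2 to 29.6%), against 32.6% of all REST peaks. RCOR2 was at 19% (49, 14.4 to 24.3%) and 0.886% (25, 0.574 to 1.30%), against 2.40%. RCOR1, the founding CoREST protein, was at 16.3% (42, 12.0 to 21.4%) and 0.709% (20, 0.433 to 1.09%), against 2.01%. These were 62 REST peaks for a list of 60 RCOR1 peaks, so some RCOR1 peaks were counted more than once. With only the REST peak nearest to each SIN3A peak kept, RCOR1 was at 15.8% (38 of 241, 11.4 to 21.0%). Every tagged protein was thus more frequent at REST peaks with SIN3A than at REST-only peaks, with intervals that did not overlap. The REST-only shares depended on how many weak REST peaks were counted: with the shortened REST list they were 69.5% for SIN3B and 59.5% for RCOR3, against 97.2 and 90.1% at REST peaks with SIN3A.

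SIN3A-only peaks had another make-up. SIN3B was present at 483 of 1051 (46.0%, 42.9 to 49.0%), against 91.7% of SIN3A peaks at REST and 54.5% of all SIN3A peaks. With intervals as deposited that share of SIN3A-only peaks was 28.2%. RCOR3 was at 67 (6.37%, 4.97 to 8.03%), against 83.0% at REST and 20.7% of all SIN3A peaks, and was at 3.23% of SIN3A-only peaks with the better-scoring 50% of every list. RCOR2 was at 7 (0.666%, 0.268 to 1.37%), against 17.8% at REST and 3.87% overall. RCOR1 was at 0 of 1051, which allows a share of up to 0.285% (3 counts of the total, the limit used here for a count of 0), against 15.8% at REST and 2.94% overall. The RCOR1 value depends on the peaks left out: with the crowded stretch of chromosome X kept it was 0.378% (4 of 1058), and with intervals as deposited 0.454% (5 of 1101).

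The combinations differed accordingly. At REST peaks with SIN3A the commonest was RCOR3 with SIN3B alone, at 148 of 258 (57.4%), with a median REST score of 74.97. All 4 tagged proteins met at 29 (11.2%), with a median REST score of 267.29, and none was present at 13 (5.04%, 2.71 to 8.46%), with a median of 12.45. At REST-only peaks the commonest state was no tagged protein, at 1676 of 2822 (59.4%), and all 4 met at 4 (0.142%). Most SIN3A-only peaks had either no tagged protein, at 536 of 1051 (51.0%), or SIN3B alone, at 445 (42.3%). RCOR3 with SIN3B was at 36 (3.43%), RCOR3 alone at 27 (2.57%), and all 4 met at none of them.

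**Figure D4:**
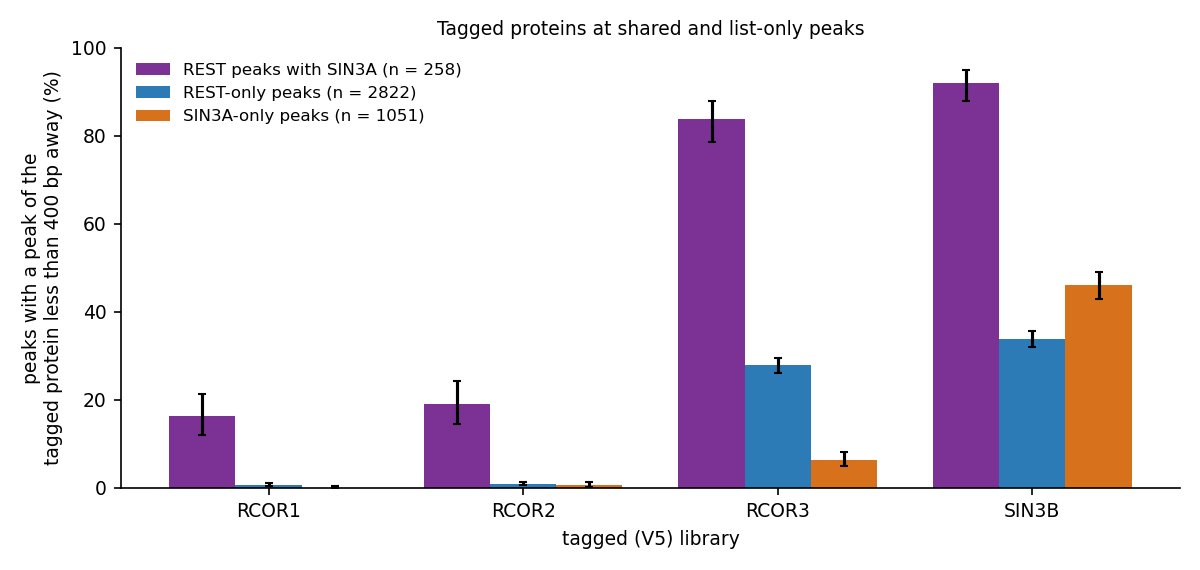
Share of REST peaks with SIN3A (purple), REST-only peaks (blue) and SIN3A-only peaks (orange) that had a peak of each tagged protein less than 400 bp away, with exact 95% intervals. RCOR3 and SIN3B are at 83.7% and 91.9% of REST peaks with SIN3A; among SIN3A-only peaks SIN3B is at 46.0% and RCOR3 at 6.37%.

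Both SIN3A and the tagged proteins were more frequent at high REST scores, so the classes were also compared at similar REST score. Weighting the REST-only peaks to the same deciles of REST score as the peaks with SIN3A raised their shares to 73.3% for SIN3B, 69.0% for RCOR3, 4.05% for RCOR1 and 3.97% for RCOR2. These remain below the 91.9, 83.7, 16.3 and 19% at REST peaks with SIN3A. Within the highest decile, REST-only peaks had SIN3B at 96.6% (172 of 178) and RCOR3 at 96.1% (171), and peaks with SIN3A had them at 100% (130 of 130) and 96.9% (126). These intervals overlapped. RCOR1 and RCOR2 did differ in that decile, at 26.9% (19.5 to 35.4%) and 27.7% (20.2 to 36.2%) with SIN3A against 7.87% (4.37 to 12.8%) and 7.30% (3.95 to 12.2%) without. Median REST scores within the decile were still unequal, at 115.97 with SIN3A and 86.23 without.

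Among weak REST peaks, too, SIN3B and RCOR3 were more frequent where SIN3A was present. In deciles 1 to 5, SIN3B was at 28 of 41 REST peaks with SIN3A (68.3%, 51.9 to 81.9%) and at 143 of 1493 REST-only peaks (9.58%, 8.13 to 11.2%), and RCOR3 at 20 (48.8%, 32.9 to 64.9%) and 101 (6.76%, 5.54 to 8.16%). RCOR2 was at 6 (14.6%, 5.57 to 29.2%) and 7 (0.469%, 0.189 to 0.964%). RCOR1 was at 2 (4.88%, 0.596 to 16.5%) and 4 (0.268%, 0.0730 to 0.685%), with overlapping intervals. Of the 41 REST peaks with SIN3A, 15 were additional ones beside a nearer one. Keeping only the REST peak nearest to each SIN3A peak left 26, with SIN3B at 14 (53.8%, 33.4 to 73.4%) and RCOR3 at 7 (26.9%, 11.6 to 47.8%). The RCOR3 value therefore fell by more than 1.5 times, while both stayed above the REST-only shares. With intervals as deposited, only 17 REST peaks with SIN3A were in these deciles, with SIN3B at 7 (41.2%) and RCOR3 at 5 (29.4%), against 5.6 and 2.97% of REST-only peaks. In deciles 6 to 9, SIN3B was at 90.8% (82.7 to 95.9%) with SIN3A and 55.6% (52.7 to 58.5%) without, and RCOR3 at 80.5% (70.6 to 88.2%) and 44.7% (41.8 to 47.7%). Median REST scores in these pooled deciles were unequal, at 46.23 with SIN3A and 34.97 without. In decile 9 alone, SIN3B was at 100% (91.2 to 100%) and 85.9% (81.1 to 89.8%). RCOR3 was there at 87.5% (73.2 to 95.8%) and 78.1% (72.6 to 82.9%), with overlapping intervals.

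The same held within the lowest and the highest quintile of SIN3A score. Ranks were not equal within the highest: of the 50 highest-scoring SIN3A peaks, 38 lay at REST. In the lowest quintile of SIN3A scores, peaks at REST had SIN3B at 90.7% (39 of 43, 77.9 to 97.4%) and RCOR3 at 72.1% (31 of 43, 56.3 to 84.7%), whereas SIN3A-only peaks had them at 38.1% (148 of 388, 33.3 to 43.2%) and 7.22% (28 of 388, 4.85 to 10.3%). In the highest quintile the shares were 96.1% (99 of 103) and 89.3% (92 of 103) at REST, and 68.8% (97 of 141, 60.5 to 76.3%) and 5.67% (8 of 141, 2.48 to 10.9%) at SIN3A-only peaks. Across these quintiles of SIN3A-only peaks SIN3B was thus more frequent at high than at low SIN3A score, and RCOR3 was not.

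Peaks of the tagged proteins also ranked higher in their own lists where REST and SIN3A met. The median percentile of the SIN3B peak was 90.4 at REST peaks with SIN3A, 62.3 at REST-only peaks and 66.8 at SIN3A-only peaks. For RCOR3 it was 92.5, 71.4 and 35.3. RCOR2 had 75.5, 43.6 and 43.6, the last from 7 peaks. These ranks were not matched for REST score. Within the highest REST decile the median score of the RCOR3 peak was 33.31 with SIN3A and 21.75 without. For SIN3B it was 33.16 and 23.21, while median REST scores were 115.97 and 86.23.

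The highest REST peaks without SIN3A were not isolated. The top 5 lay on chromosome 7 at 24068191 to 24068231 (REST score 242.99), chromosome 2 at 33912771 to 33912811 (234.7), chromosome 16 at 95202731 to 95202771 (212.18), chromosome 6 at 84639971 to 84640031 (165.35) and chromosome 11 at 55654331 to 55654371 (156.46). All 5 had RCOR3 and SIN3B peaks, the first also RCOR2 and the second also RCOR1. Their nearest SIN3A peaks were 128 to 1073 kb away.

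Of the 5 highest SIN3A-only peaks, 4 had no tagged protein, although SIN3B was at 68.8% of SIN3A-only peaks in the highest quintile. The first lay on chromosome 8 at 74539991 to 74540251, with a SIN3A score of 49.54 and a width of 260 bp, and had no peak of any other protein within the limit. The others were on chromosome 3 at 129823491 to 129823531 (28.41), chromosome 14 at 6794711 to 6794751 (27.69), chromosome 17 at 33526511 to 33526571 (26.23) and chromosome 11 at 102064891 to 102064931 (23.31). The peak on chromosome 3 had a SIN3B peak with a score of 94.5.

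Median widths were equal in shared and list-only peaks, at 40 bp for both classes of REST peaks and 60 bp for both classes of SIN3A peaks. The narrowest listed width, 40 bp, was found for 76.0% of REST peaks with SIN3A (70.3 to 81.1%) and 63.9% of REST-only peaks (62.1 to 65.7%), and for 45.2% of SIN3A peaks at REST (38.8 to 51.7%) and 32.7% of SIN3A-only peaks (29.9 to 35.7%). Widths over 100 bp were found for 21.6% of SIN3A peaks at REST (16.6 to 27.3%) and 31.0% of SIN3A-only peaks (28.2 to 33.9%). For REST this changed with score: in deciles 6 to 9 the share at 40 bp was 73.6% with SIN3A and 75.1% without, and in deciles 1 to 5 it was 39.0% (24.2 to 55.5%) and 53.2% (50.7 to 55.8%).

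REST peaks with SIN3A had closer neighbours in their own list. Another REST midpoint lay within 10 kb of 73 of 258 (28.3%, 22.9 to 34.2%) and of 369 of 2822 REST-only peaks (13.1%, 11.9 to 14.4%), and the median distance to the nearest other REST peak was 51.8 and 134 kb. The size of this difference depended on the weak peaks: with the better-scoring 50% of every list the shares were 12.9% (8.37 to 18.8%) and 7.75% (6.39 to 9.29%), and with the shortened REST list 10.4% (6.62 to 15.3%) and 6.94% (5.5 to 8.63%), with overlapping intervals. With neighbouring peaks merged the shares were 17.1 and 10.3%. REST peaks counted at the same SIN3A peak were neighbours of each other by the sharing rule. With only the REST peak nearest to each SIN3A peak kept, the share with SIN3A was 23.2% (56 of 241, 18.1 to 29.1%). The additional REST peaks still counted as neighbours in that value and in those by decile. In deciles 6 to 9 of REST score the shares were 13.8% (7.34 to 22.9%) and 13.6% (11.6 to 15.7%), whereas in decile 10 they were at 32.3% (24.4 to 41.1%) and 18% (12.6 to 24.4%). In deciles 1 to 5 they were at 46.3% (19 of 41, 30.7 to 62.6%) and 12.1% (10.5 to 13.9%), but the former was 15.4% (4 of 26) when only the REST peak nearest to each SIN3A peak was kept. For SIN3A the order was the other way, with another SIN3A midpoint within 10 kb of 8.30% of peaks at REST (5.14 to 12.5%) and 13.7% of SIN3A-only peaks (11.7 to 15.9%). That SIN3A order depends on which peaks are counted: without chromosome 8 the share of SIN3A-only peaks was 10.5%, and with the crowded stretch of chromosome X kept that of peaks at REST was 13.7%.

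SIN3A-only peaks were concentrated on chromosome 8. It held 174 of 1051 (16.6%, 14.4 to 18.9%), against 17 of 241 SIN3A peaks at REST (7.05%, 4.16 to 11.1%) and 145 of 2822 REST-only peaks (5.14%, 4.35 to 6.02%). Of the tagged lists, RCOR2 had 12.4% of its peaks there (54 of 437, 9.42 to 15.8%), an interval that overlaps that of SIN3A-only peaks, SIN3B 8.80% (466 of 5294, 8.05 to 9.60%) and RCOR3 2.47% (92 of 3729, 1.99 to 3.02%). No other chromosome held more than 8.37% of SIN3A-only peaks. As a result, 8.90% of the SIN3A peaks of chromosome 8 lay at REST (17 of 191, 5.27 to 13.9%), while 11.6% of its REST peaks had SIN3A (19 of 164, 7.12 to 17.5%), close to the 8.38% of the whole REST list.

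By score, width and SIN3B, the SIN3A-only peaks of chromosome 8 were close to those elsewhere. Their median score was 10.93, as on the other chromosomes, their median width was 60 bp in both, and SIN3B was present at 49.4% (86 of 174, 41.8 to 57.1%) against 45.3% (397 of 877, 41.9 to 48.6%). They were closer to each other, with a median distance to the nearest SIN3A peak of 28.0 kb against 185 kb. Within the chromosome, 145 of the 174 (83.3%, 76.9 to 88.5%) lay between 70 and 110 Mb, bounds chosen after the values were seen. That window held 41.5% of the REST peaks of chromosome 8 (68 of 164, 33.8 to 49.4%), 48.9% of those of RCOR3 (45 of 92), 67.6% of those of SIN3B (315 of 466, 63.1 to 71.8%) and 72.2% of those of RCOR2 (39 of 54). Of the SIN3A peaks at REST on this chromosome it held 58.8% (10 of 17, 32.9 to 81.6%), an interval that overlaps that of SIN3A-only peaks.

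The largest share of shared peaks was on another chromosome. Chromosome 2 held 11.2% of the SIN3A peaks at REST (27 of 241, 7.51 to 15.9%), against 6.28% of SIN3A-only peaks (4.89 to 7.92%) and 8.15% of all REST peaks (7.21 to 9.17%). Chromosomes 4 and 5 each held 10.4% (25 each, 6.83 to 14.9%), against 7.99 and 8.25% of all REST peaks. Chromosomes 1 and 3 held 5 (2.07%, 0.677 to 4.77%) and 3 (1.24%, 0.257 to 3.59%), against 5.45 and 3.44%. All these intervals overlapped those of all REST peaks. On chromosome 15, 34.8% of SIN3A peaks lay at REST (16 of 46, 21.4 to 50.2%), and on chromosome 17 it was 8.45% (6 of 71, 3.16 to 17.5%). In the whole SIN3A list it was 18.7% (16.6 to 20.9%). Chromosome X outside the crowded stretch had 24 REST peaks and no SIN3A peak, which by the same limit of 3 counts allows up to 0.232% of the SIN3A list. None of those 24 REST peaks could therefore be shared.

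**Figure D5:**
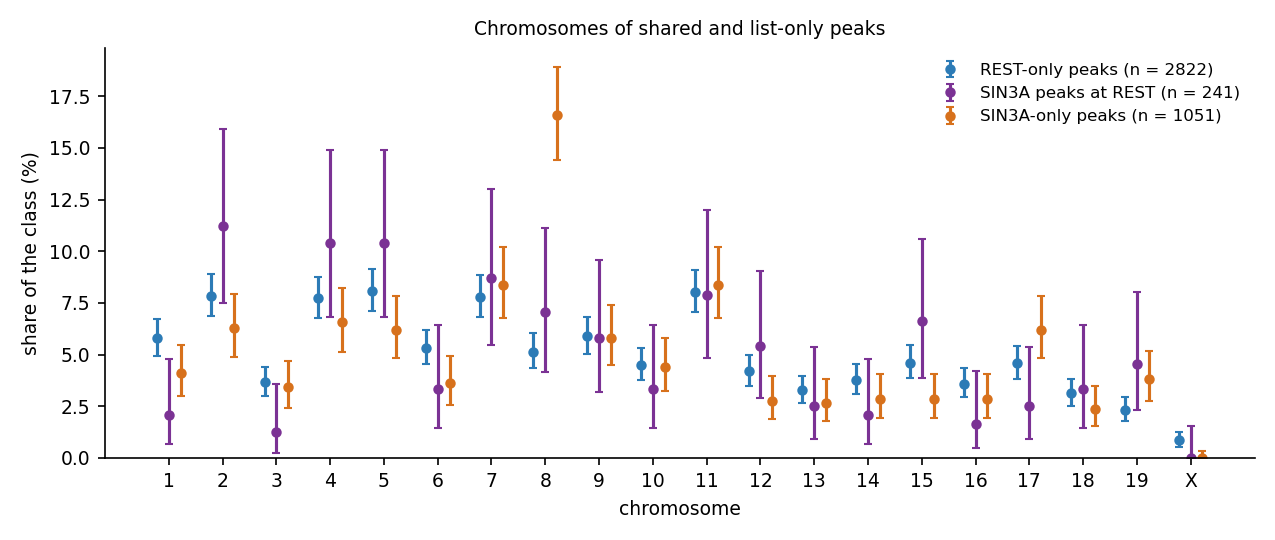
Share of REST-only peaks (blue), SIN3A peaks at REST (purple) and SIN3A-only peaks (orange) on each chromosome, with exact 95% intervals. Chromosome 8 holds 16.6% of SIN3A-only peaks, above the 7.05% of SIN3A peaks at REST and 5.14% of REST-only peaks.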

How the data were processed

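Each library came as 1 list deposited by the authors, giving a position and a score for every peak. The build mm8 comes from the names of the deposited lists. Aligner, peak caller, control, threshold, read depth and the meaning of the score were not given in the sources used here, nor was it stated whether positions count from 0 or 1. Per the labels' protocols, libraries had 15 cycles of PCR and fragments of about 250 bp.

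Midpoints, distances and within-list percentile ranks of the score (ties averaged) were computed with Python 3.11.15, pandas 2.3.3 and numpy 2.4.6, and intervals with scipy 1.17.1. Deciles and quintiles, numbered from the lowest score, are of these percentiles. For each SIN3A peak the nearest REST peak gave the pair. The matching was checked on simulated lists with planted pairs. The members and comparisons were chosen with earlier results of these data known. Regions named are the 5 highest shared sites by mean percentile, the 5 highest REST-only and SIN3A-only peaks, and the 3 shared sites with the widest rank difference each way. No p-values were computed, since each protein had 1 library.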

Additional observations from a re-analysis of the deposited data

Results flagged for a closer look

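The stretch of chromosome X that was left out of all values above held peaks of both lists. Of its 24 REST peaks 16 had a SIN3A peak less than 400 bp away, and of its 22 SIN3A peaks 15 lay at REST. These peaks entered no comparison above, and what share of pairs so crowded a stretch gives by placement alone was not tested. REST scores there were low, from 8 to 23.11 with a median of 11.85 (percentile 23.7), and SIN3A scores high for that list, with a median of 14.94 (percentile 87.8).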

How the results depend on the processing

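No paired analysis was possible because each protein had 1 library. Shares were called moved when they left the 95% interval of the reported value, distances and widths beyond 20 bp and rank correlations beyond 0.1; of 297 values under alternatives 231 stayed and 66 moved, and the rank correlation outside the highest REST decile turned from -0.036 to 0.106 and 0.129 in 2 alternatives given below. Only pairs that were each other's nearest gave the same rank correlation, 0.478.

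With intervals as deposited and an overlap of at least 1 bp, 14.8% of SIN3A peaks lay at REST (6.50% in the lowest quintile) and 6.20% of REST peaks had SIN3A (35.1% in the highest and 0.855% in the lowest decile). RCOR3 and SIN3B were then at 78.5 and 82.2% of REST peaks with SIN3A, and at 22.8 and 28.7% of REST-only peaks. In deciles 1 to 5 they were at 29.4 and 41.2%, against 2.97 and 5.6%. SIN3A-only peaks had SIN3B at 28.2% and RCOR1 at 0.454%, and 22% of REST peaks with SIN3A had another REST peak within 10 kb. At 200 bp, SIN3B was at 41.2% of SIN3A-only peaks. In deciles 1 to 5, RCOR3 was then at 25.9% of REST peaks with SIN3A, and RCOR3 and SIN3B at 4.64 and 7.37% of REST-only peaks. At 1000 bp, SIN3B was at 50.5% of SIN3A-only peaks.

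With the better-scoring 50% of every list, 11.5% of REST peaks had SIN3A (58.1% in the highest and 0.709% in the lowest decile). REST-only peaks had RCOR1 at 0.365%, RCOR3 at 40.9% and SIN3B at 44.4% (18.6 and 21.2% in deciles 1 to 5), and SIN3A-only peaks RCOR3 at 3.23% and SIN3B at 37.6%. Another peak of the list lay within 10 kb of 12.9% of REST peaks with SIN3A, 7.75% of REST-only and 9.69% of SIN3A-only peaks, and the rank correlation outside the highest REST decile was 0.106. With the REST list cut to 1292 peaks, 16.3% of SIN3A and 16.4% of REST peaks were shared (65.9% in the highest REST decile). RCOR3 and SIN3B were at 90.1 and 97.2% of REST peaks with SIN3A. REST-only peaks had RCOR1 at 1.48%, RCOR2 at 1.67%, RCOR3 at 59.5% and SIN3B at 69.5%. In the lower 5 deciles RCOR3 and SIN3B were at 68.6 and 88.6% with SIN3A, and 40.5 and 53.7% without. Chromosome 8 held 4.17% of REST-only peaks, neighbours within 10 kb were found for 10.4 and 6.94% of REST peaks with and without SIN3A, and the rank correlation outside the highest REST decile was 0.129. These deciles are of shorter lists, so they cover other scores.

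With neighbouring peaks merged, REST peaks with and without SIN3A had a neighbour within 10 kb in 17.1 and 10.3%. In deciles 1 to 5, RCOR3 was at 23.1 and 5.13%, and SIN3B at 50 and 7.97%. With the stretch of chromosome X kept, RCOR1 was at 0.378% of SIN3A-only peaks, and 13.7% of SIN3A peaks at REST had a neighbour within 10 kb. Without chromosome 8, 10.5% of SIN3A-only peaks had one. Within deciles of REST score, weighted as the peaks with SIN3A, REST-only peaks had RCOR1 at 4.05%, RCOR2 at 3.97%, RCOR3 at 69.0% and SIN3B at 73.3%. An alternative chosen after seeing the data, only the REST peak nearest to each SIN3A peak, put RCOR3 at 26.9% in deciles 1 to 5. The cause of these changes was not tested. Lists near the authors' threshold limit every share, since a missing peak may lie just under it.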
